A study of Mus musculus with 4 samples.

Results

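Interstitial macrophages are the macrophages of the lung wall and of the spaces around vessels and airways, apart from the alveolar macrophages of the airspace. Markers of these cells were examined in lung tissue by RNA sequencing. The set held 8 genes, C1qa, C1qb, C1qc, Csf1r, Ms4a7, Folr2, Apoe and Adgre1, each found by its symbol among the 46603 Ensembl genes of the deposited table without a filter. Of the 8, 7 were also among the 12850 genes of the authors' filtered table, and Folr2 was outside it. The SA group held 2 libraries from mice with Ifnar1S526A, an allele of the type I interferon receptor chain IFNAR1 in which a serine is replaced by alanine. The WT group held 2 libraries from Ifnar1+/+ littermates. All mice were of C57BL/6 background and 6 to 8 weeks old, and 3 times a week for 3 weeks all were given 100 µl of B16F10 conditioned medium, the culture fluid of a mouse melanoma line, into a vein. Lungs without conditioned medium were not analysed here, and the labels do not say whether the SA mice carried 1 or 2 copies of the allele.

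C1q is the recognition unit of the classical complement pathway, and in tissues its main source is macrophages. Its A, B and C chains are encoded by C1qa, C1qb and C1qc and assemble into a single molecule. Csf1r encodes the receptor through which CSF1 and IL-34 keep macrophages alive, and Adgre1 encodes an adhesion G protein-coupled receptor long used to identify mouse macrophages. Folr2 encodes a folate receptor of resident macrophages near vessels, Ms4a7 a membrane-spanning protein of macrophages, and Apoe a lipid-carrying protein secreted by macrophages and by other cells. Csf1r and Adgre1 are also expressed by monocytes and alveolar macrophages, so none of the 8 genes counts interstitial macrophages by itself.

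The libraries held 27381916 and 38378936 gene reads in SA lungs, against 30611946 and 31645038 in WT lungs. Values are log2 CPM, the log2 of a gene's reads per 1000000 gene reads of the library. Each difference is SA minus WT in log2 CPM and carries its SE from limma. As a check of the tissue, the surfactant gene Sftpc was at 14.08 and 13.77 log2 CPM in SA lungs and 14.12 and 13.77 in WT lungs. The libraries of a genotype were not alike in tissue content. Summed over 10 adipocyte genes, a list chosen after the values were seen, the level was 845 and 2919 CPM in SA 1 and SA 2, against 364 and 2442 CPM in WT 1 and WT 2. Summed over 16 striated muscle genes it was 3112 and 4698 CPM in SA lungs, against 1236 and 1825 CPM in WT lungs. Among 19 tested type I interferon-stimulated genes, 9 passed with higher values in SA lungs and 0 with lower values.

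Every marker was detected in every library, and none passed the threshold between genotypes. By limma with Benjamini-Hochberg adjustment over all genes of the table, 0 of the 8 had an adjusted p under 0.05, against 0.311% of all genes of the filtered table and 4.75% of the unfiltered table used for Folr2. With voom on the recovered reads 0 passed as well. At an unadjusted p under 0.05 there were 2, Ms4a7 and Adgre1, both higher, where 27.3% of the filtered table passed, 16.4% with higher values. Folr2 did not pass, where 14.3% of the unfiltered table did. The markers behaved in 2 ways. Ms4a7, Adgre1 and Csf1r were close between the libraries of a genotype, with the first pair higher and Csf1r lower in both SA libraries. The C1q chains, Folr2 and Apoe differed more within a genotype than between genotypes. With 2 libraries a group, the smallest two-sided p an exact permutation test allows is 0.333, so no p of that kind is given.

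**Figure D1:**
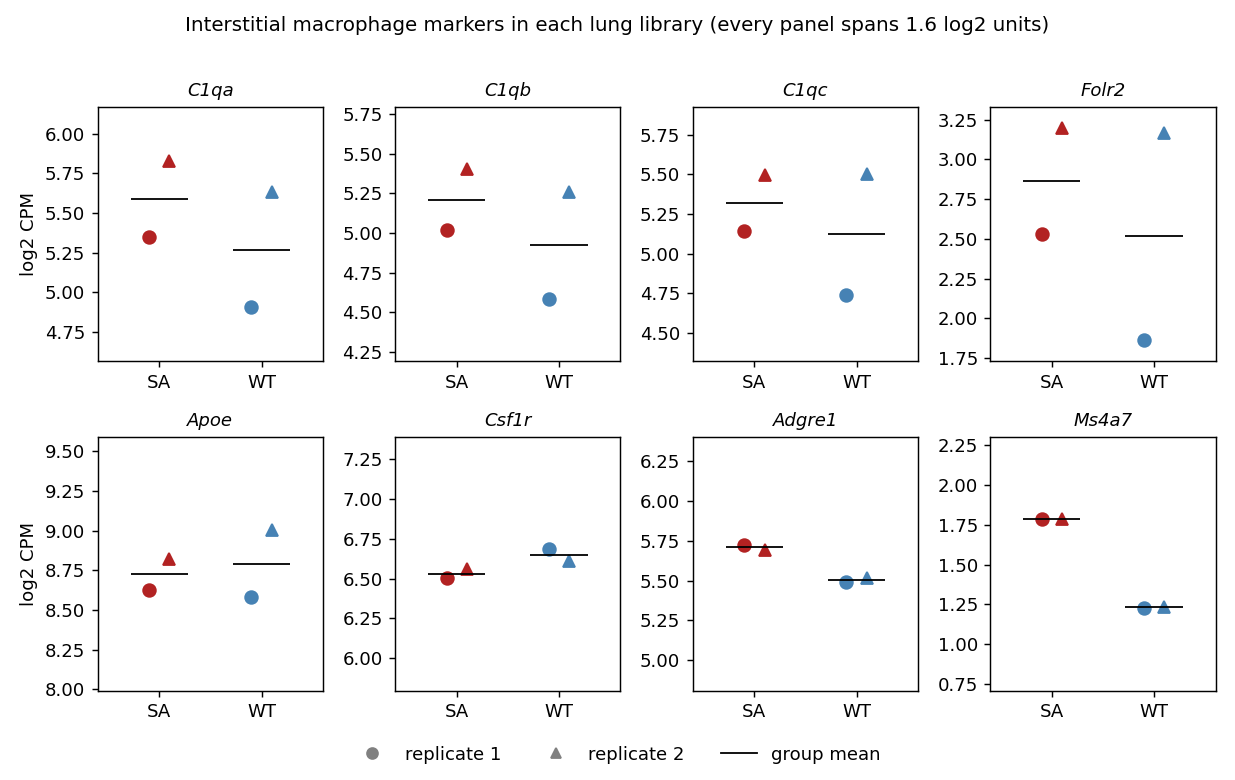
Each panel plots 1 marker gene as log2 CPM (vertical axis, 1.6 log2 units in every panel) in the SA libraries on the left and the WT libraries on the right, with circles for replicate 1, triangles for replicate 2 and a line at the group mean. The genotypes do not overlap for Csf1r, Adgre1 and Ms4a7, while the other 5 panels show libraries of a genotype lying apart and the groups overlapping.

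C1qa, C1qb and C1qc lie side by side on the minus strand of chromosome 4 in GRCm38, within 18675 bases. C1qb occupies 136880129 to 136886187, C1qc 136889804 to 136893065 and C1qa 136895917 to 136898803. The windows around the RefSeq starts of C1qb and C1qc (GRCm38.p6, 250 bases before to 50 after the start, minus strand) are shown because the genes varied together between libraries. Capitals mark GAGGAA on either strand, the core that the macrophage factor PU.1 prefers.
C1qb, chr4:136886151-136886450: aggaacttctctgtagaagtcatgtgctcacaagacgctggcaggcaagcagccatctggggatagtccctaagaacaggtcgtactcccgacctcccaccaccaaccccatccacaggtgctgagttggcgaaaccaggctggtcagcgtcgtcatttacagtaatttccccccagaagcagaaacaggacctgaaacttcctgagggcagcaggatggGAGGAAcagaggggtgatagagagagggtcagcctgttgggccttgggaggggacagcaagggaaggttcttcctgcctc
C1qc, chr4:136892865-136893164: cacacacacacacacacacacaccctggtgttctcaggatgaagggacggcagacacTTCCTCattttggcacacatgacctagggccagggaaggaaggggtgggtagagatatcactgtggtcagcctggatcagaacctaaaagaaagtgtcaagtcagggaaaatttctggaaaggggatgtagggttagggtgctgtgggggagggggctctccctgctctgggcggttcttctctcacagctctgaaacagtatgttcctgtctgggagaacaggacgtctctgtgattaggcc
The match began at position -30 from the start in C1qb, on the strand of the gene, and at -193 in C1qc, on the other strand. Of all 32851 promoter windows of this length in the RefSeq table, 28.3% hold this motif, so its presence is common.

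C1qa was at 5.35 log2 CPM in SA 1 and 5.83 in SA 2, against 4.91 in WT 1 and 5.63 in WT 2. In counts this was 1118 and 2182 reads in SA lungs and 917 and 1568 reads in WT lungs. SA 2 was the highest and WT 1 the lowest library, and the groups overlapped. The means were 5.59 ± 0.34 in SA lungs and 5.27 ± 0.51 in WT lungs (SD, n = 2 each), a difference of 0.32 ± 0.30 (SE, 95% interval -0.50 to 1.14, limma adjusted p = 0.52). C1qb stood at 5.02 and 5.40 in SA 1 and SA 2, against 4.58 and 5.26 in WT 1 and WT 2. Its order of libraries was that of C1qa, and its difference of 0.29 ± 0.27 had an adjusted p of 0.53. C1qc stood at 5.14 and 5.49 in SA 1 and SA 2, against 4.74 and 5.51 in WT 1 and WT 2. Here WT 2 was marginally the highest library, and the difference was 0.20 ± 0.29 (limma adjusted p = 0.69). Between replicates, SA 2 exceeded SA 1 by 0.48, 0.39 and 0.35 for C1qa, C1qb and C1qc, and WT 2 exceeded WT 1 by 0.73, 0.68 and 0.76. Those WT steps were wider than the steps of 98.5%, 97.9% and 98.4% of genes within 0.5 log2 CPM of the same level. Without WT 1 the differences of C1qa, C1qb and C1qc became -0.04, -0.05 and -0.19, and without WT 2 they were 0.69, 0.63 and 0.58.

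Within a library the 3 chains kept nearly the same proportion. The log2 ratio of C1qa to C1qb was 0.34 and 0.43 in SA lungs, against 0.32 and 0.37 in WT lungs, a range of 0.10 over all 4 libraries where C1qa itself ranged from 4.91 to 5.83. The ratio of C1qa to C1qc was 0.21 and 0.33 in SA lungs and 0.16 and 0.13 in WT lungs. The ratio of C1qc to C1qb was 0.13 and 0.09 in SA lungs and 0.16 and 0.25 in WT lungs. Thus C1qc was slightly scarcer relative to the other chains in both SA libraries, by 0.13 against C1qa and 0.09 against C1qb, differences that were not tested. Summed over the chains, C1q transcripts took 109 and 144 CPM in SA lungs, against 80.7 and 133 CPM in WT lungs.

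Folr2 (chromosome 7, 101839988 to 101857194, minus strand) varied more than any other marker of the set. It was at 2.53 log2 CPM in SA 1 and 3.20 in SA 2, against 1.86 in WT 1 and 3.17 in WT 2, from 158 and 351 reads in SA lungs and 111 and 284 reads in WT lungs. SA 2 and WT 2 were nearly equal, and both replicate 1 libraries were lower. The exact Poisson 95% intervals, which cover counting error only, ran from 4.91 to 6.74 CPM in SA 1 and from 8.21 to 10.2 CPM in SA 2, and from 2.98 to 4.37 CPM in WT 1 and from 7.96 to 10.1 CPM in WT 2. Counting error therefore does not span the gap between the libraries of either genotype. The difference was 0.35 ± 0.30 (SE, interval -0.28 to 0.97, limma adjusted p = 0.76 in the unfiltered table). The width of this interval depends on the fit. With all libraries kept, the SE ran from 0.13 with the replicate block to 0.57 without the trend. At a mean of at least 1 log2 CPM the SE was 0.51, and with voom it was 0.49. The sign and the call depended on which WT library was kept. Without WT 2 the difference was 1.00 (limma adjusted p = 4.2e-05), in a fit where 7.25% of all genes passed, and without WT 1 it was -0.30 (limma adjusted p = 0.70). In both fits the lone WT library is assumed to vary like the SA pair. On chromosome 7 an antisense gene, Gm10602, overlaps Folr2 with at most 58 reads in a library, and the strand setting of the counting is not stated in the notes or labels.

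Libraries ranked for Folr2, C1qa and C1qb in the same order as for the summed adipocyte genes, a list chosen after the values were seen. That order had WT 1 lowest, then SA 1, WT 2 and SA 2. C1qc and Apoe did not follow it at the top, where WT 2 lay above SA 2. The adipocyte genes spanned 364 to 2919 CPM over these libraries while Folr2 spanned 3.63 to 9.15 CPM and C1qa 30.0 to 56.9 CPM. Striated muscle genes ranked otherwise, with both WT libraries below both SA libraries. Summed T, B and NK cell genes also had WT 1 lowest, then SA 1, SA 2 and WT 2, the order of C1qc and Apoe. Whether carried-over fat tissue had a part in the C1q and Folr2 levels was not tested. In whole tissue, fewer cells of a type and less RNA per cell cannot be told apart.

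Apoe was the most abundant marker and differed little between genotypes. It was at 8.63 and 8.82 log2 CPM in SA 1 and SA 2, against 8.58 and 9.003 in WT 1 and WT 2. The 2 SA libraries lay between the 2 WT libraries. The means were 8.72 ± 0.14 in SA lungs and 8.79 ± 0.30 in WT lungs (SD, n = 2 each), and the difference was -0.07 ± 0.17 (SE, interval -0.53 to 0.40, limma adjusted p = 0.82). Its sign turned when SA 1 or WT 2 was left out, at 0.03 and 0.14, and with quantile normalization, at 0.02.

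**Figure D2:**
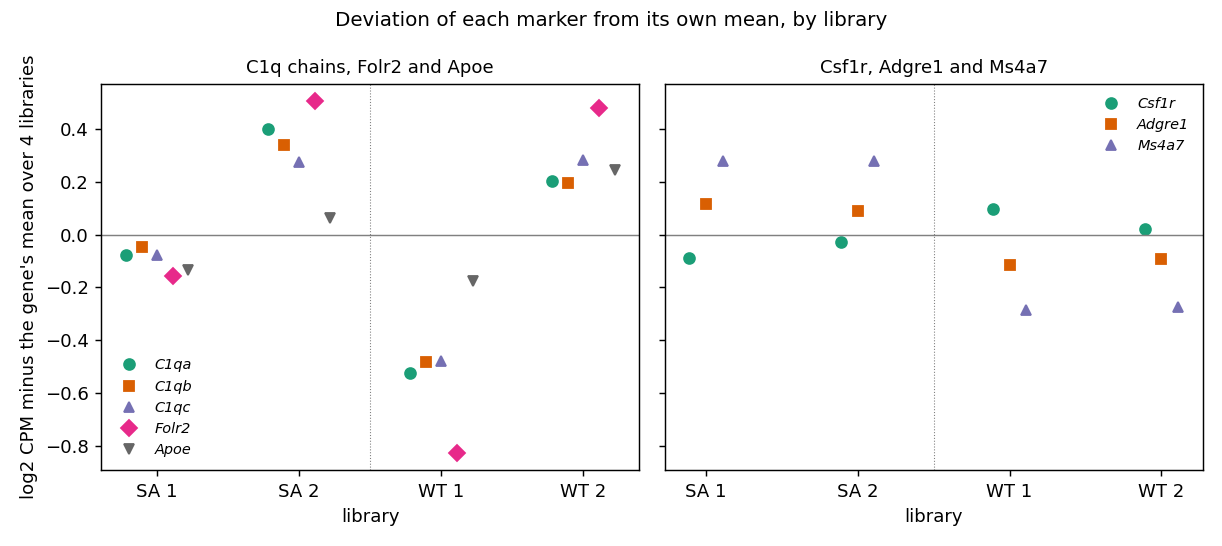
Points give each marker's log2 CPM minus its own mean over the 4 libraries (vertical axis), by library (horizontal axis), with the C1q chains, Folr2 and Apoe on the left and Csf1r, Adgre1 and Ms4a7 on the right. On the left WT 1 is the lowest library for all 5 genes; on the right Adgre1 and Ms4a7 lie above 0 in both SA libraries and below 0 in both WT libraries, and Csf1r does the reverse.

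Ms4a7 had the largest difference between genotypes among the 8 markers. The gene lies on the minus strand of chromosome 19 from 11321039 to 11336146. The window around its upstream RefSeq start (GRCm38.p6, minus strand) is shown because this marker had the largest difference of the 8. The GAGGAA match in capitals begins at position 44 after the start.
Ms4a7, chr19:11336097-11336396: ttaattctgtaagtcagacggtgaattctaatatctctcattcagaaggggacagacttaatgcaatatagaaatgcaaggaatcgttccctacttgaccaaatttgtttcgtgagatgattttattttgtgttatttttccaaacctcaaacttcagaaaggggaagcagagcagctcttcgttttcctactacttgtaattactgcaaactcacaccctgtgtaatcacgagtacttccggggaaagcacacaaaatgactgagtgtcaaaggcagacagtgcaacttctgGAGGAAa
Ms4a7 was at 1.787 log2 CPM in SA 1 and 1.788 in SA 2, against 1.224 in WT 1 and 1.235 in WT 2, which is 3.43 and 3.44 CPM in SA lungs and 2.32 and 2.34 CPM in WT lungs. Both SA libraries lay above both WT libraries. The difference was 0.56 ± 0.15 (SE, interval 0.14 to 0.98, unadjusted p = 0.020, limma adjusted p = 0.12), a 1.47-fold ratio. These values rest on few reads, 94 and 132 in SA lungs against 71 and 74 in WT lungs. Counting alone gives the step between replicates an SD of 0.195 in SA lungs and 0.24 in WT lungs. The observed steps of 0.0005 in SA and 0.01 in WT were far smaller than that. On summed reads, 226 in SA lungs and 145 in WT lungs, the ratio was 1.48 with an exact binomial 95% interval from 1.19 to 1.83, which compares these libraries and covers counting error only. With quantile normalization the difference was 0.15 (adjusted p = 0.72), and over all alternatives the adjusted p ranged from 0.077 to 0.72.

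Adgre1 (chromosome 17, 57358691 to 57483527, plus strand) was at 5.72 and 5.70 log2 CPM in SA lungs, against 5.49 and 5.51 in WT lungs. Both SA libraries were higher, and the steps within a genotype were -0.03 in SA and 0.02 in WT. The means were 5.71 ± 0.02 in SA lungs and 5.50 ± 0.02 in WT lungs (SD, n = 2 each), from 1444 and 1988 reads in SA and 1377 and 1445 reads in WT. The difference was 0.21 ± 0.05 (SE, interval 0.06 to 0.35, unadjusted p = 0.017, limma adjusted p = 0.12). It was positive under each of 13 alternatives, from 0.12 with median centring to 0.22.

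Csf1r, on chromosome 18, was lower in both SA libraries. It was at 6.50 and 6.56 log2 CPM in SA lungs, against 6.69 and 6.61 in WT lungs, with 2479 to 3628 reads in SA and 3094 to 3155 reads in WT. The groups did not overlap, but WT 2 exceeded SA 2 by little. The means were 6.53 ± 0.04 in SA lungs and 6.65 ± 0.05 in WT lungs (SD, n = 2 each), and the difference was -0.12 ± 0.06 (SE, interval -0.28 to 0.04, limma adjusted p = 0.27). With median centring it was -0.21 (unadjusted p = 0.029, limma adjusted p = 0.15). Csf1r overlaps Hmgxb3, which lies on the opposite strand and had up to 1803 reads.

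Among the 7 markers of the filtered table, 2 had both SA libraries above both WT libraries, where 37.8% of all genes did. In the other direction 1 had both below, where 22.9% of all genes did. The median difference of the 8 markers was 0.25, beside a median of 0.06 over all genes of the filtered table. The median of the markers was 0.16 with median centring, 0.14 with quantile normalization and -0.06 without WT 1. These counts are close to those of genes at large, so separation of the groups by itself does not set the markers apart.

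**Figure D3:**
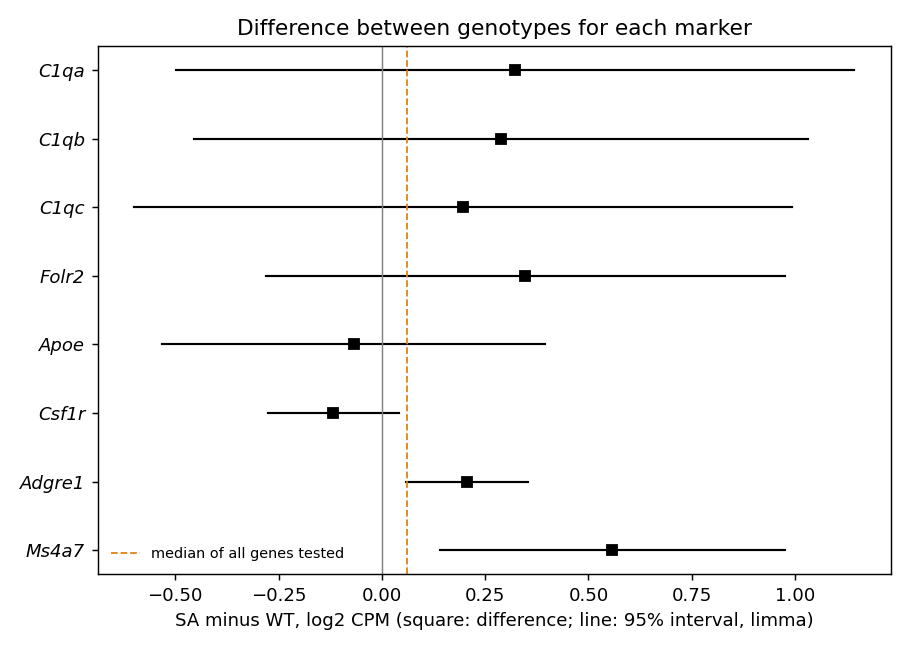
Squares give the difference SA minus WT in log2 CPM (horizontal axis) for each marker (vertical axis), lines its 95% interval from limma, and the dashed line the median of all genes of the filtered table at 0.06. The intervals of Adgre1 and Ms4a7 lie above 0, that of Csf1r reaches from -0.28 to 0.04, and the C1q chains, Folr2 and Apoe have wide intervals across 0. The interval of Folr2 is from the fit of the unfiltered table, so its width is not on a par with the others.

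Within a library, Adgre1 and Ms4a7 were each set against Csf1r. The log2 ratio of Adgre1 to Csf1r was -0.78 and -0.87 in SA lungs, against -1.20 and -1.10 in WT lungs. The ratio of Ms4a7 to Csf1r was -4.71 and -4.78 in SA lungs, against -5.46 and -5.38 in WT lungs. Both ratios were higher in both SA libraries, by 0.32 and 0.68. They do not depend on the scaling of a library to its total, and they were not tested.

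Per kb of annotated exon, Apoe had the highest level and Ms4a7 the lowest in every library. Apoe averaged 7.63 ± 0.14 log2 CPM per kb in SA lungs and 7.70 ± 0.30 in WT lungs (SD, n = 2 each), above all other markers in all libraries. C1qa followed at 5.53 ± 0.34 in SA lungs and 5.21 ± 0.51 in WT lungs, then C1qb at 5.09 ± 0.27 and 4.80 ± 0.48 in SA and WT lungs, on the same scale. C1qa was above C1qb within each library, although their ranges over libraries overlap. C1qc, Csf1r and Adgre1 could not be ordered beyond their spread. C1qc averaged 4.37 log2 CPM per kb in SA lungs and 4.17 in WT lungs, Csf1r 4.002 and 4.12 in SA and WT lungs, and Adgre1 4.01 and 3.81 in SA and WT lungs. Folr2 was lower, at 2.24 ± 0.47 in SA lungs and 1.89 ± 0.92 in WT lungs, and Ms4a7 was at -0.37 in SA lungs and -0.93 in WT lungs. The lengths are unions of exons in GENCODE M21, so a gene with rarely used exons is placed too low.

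Genes that work with the markers were taken from lists of partners and of other cell types. Over 10 such lists with 104 tested genes, 0 passed the threshold by limma. At an unadjusted p under 0.05 there were 25, or 24.0%, with 13 higher and 12 lower, near the 27.3% of all genes. With voom on the recovered reads, with median centring and at a mean of at least 1 log2 CPM, 1 of them passed, the monocyte gene Plac8. In the unfiltered table, where 4.75% of all genes passed, more of them did. That share is over 46603 genes, of which 14534 had a mean of at least 1 log2 CPM. It is therefore not a like baseline for these 104 genes of the filtered table. With that floor 36 of the 14534 genes passed. Without the floor, classical monocyte markers held 3 higher and 1 lower. Other resident macrophage markers and partners of Apoe held 1 higher and 2 lower each. Other Ms4a genes held 2 higher and 1 lower, complement partners 1 higher and 1 lower, and CSF1 receptor partners 1 higher. In the remaining lists 0 passed.

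Other markers of resident and interstitial macrophages did not follow a common direction. Of 17 tested genes, 8 were higher and 9 lower in SA lungs, with a median difference of -0.02. Both SA libraries were above both WT libraries for 6 and below for 3, shares near those of all genes. Lyve1, a hyaluronan receptor of lymphatic endothelium and of macrophages near vessels, was at 9.37 and 8.95 log2 CPM in SA lungs, against 9.95 and 9.62 in WT lungs (difference -0.62 ± 0.20, limma adjusted p = 0.15). The scavenger receptor gene Stab1 and the microglial marker gene Tmem119 were also lower in both SA libraries, at -0.22 and -0.46. Lyve1, Stab1 and Cd93 are also endothelial genes, and 12 lung endothelial markers summed to 4145 and 3636 CPM in SA lungs, against 5445 and 4794 CPM in WT lungs, with 0 past the threshold by limma and 8 lower at an unadjusted p under 0.05, where 10.9% of all genes were. Of 12 fibroblast and matrix markers, 4 were higher and 8 lower in SA lungs, with a median difference of -0.46. By limma 8 of them were lower at an unadjusted p under 0.05, where 10.9% of all genes were. The part of endothelial cells or fibroblasts in the values of Lyve1, Stab1, Tmem119 and Cd93 was not tested. Cx3cr1, the fractalkine receptor gene, was higher in both, at 0.54 ± 0.18 (adjusted p = 0.15, limma). The others above without overlap, named after their values were seen, were Ccl8 at 1.25, C3ar1 at 0.46, Cd14 at 0.30, Cbr2 at 0.27 and Pf4 at 0.23, with limma adjusted p between 0.19 and 0.50. Cbr2 was at 12.26 and 12.21 log2 CPM in SA lungs and 11.98 and 11.94 in WT lungs, far above every marker of the set. Which cells gave its reads was not tested. The mannose receptor gene Mrc1 differed by -0.16. Cd163, the haemoglobin scavenger receptor gene, had the library order of C1qc, with both replicate 2 libraries higher. It was at 4.13 and 4.54 in SA lungs and 3.84 and 4.63 in WT lungs. The transcription factor gene Maf was likewise higher in both replicate 2 libraries, at 3.77 and 4.14 in SA lungs and 3.76 and 4.27 in WT lungs.

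Genes shared by macrophages in general were close to equal, with a median difference of 0.03 over 14 that turned to -0.06 with median centring and -0.04 with quantile normalization. Cd68, a lysosomal protein gene, differed by -0.08 ± 0.09 and Mertk, a receptor for dying cells, by -0.10 ± 0.07 (limma adjusted p = 0.62 and 0.39). Sirpa, the receptor for CD47, was at -0.14. The high-affinity IgG receptor gene Fcgr1 was higher in both SA libraries at 0.50 ± 0.18, as was Aif1, which encodes IBA1, at 0.49 ± 0.21 (limma adjusted p = 0.18 and 0.22). Alveolar macrophage markers had a median of 0.16 over 16 genes, with Siglecf, a sialic acid-binding receptor gene, at -0.31 and the scavenger receptor gene Marco at -0.08. Slc7a2, an arginine transporter gene of that list, differed by 0.25 ± 0.09 and Plet1 by 0.20 ± 0.08 (limma adjusted p = 0.17 and 0.21). Fabp4, named after its values were seen, is on that list but also an adipocyte gene, and its values of 6.47 and 9.32 log2 CPM in SA lungs and 5.02 and 8.41 in WT lungs followed the adipocyte genes. Cidec of that list, also named after its values were seen, was likewise far higher in both replicate 2 libraries. It was at 5.70 and 7.22 in SA lungs and 5.06 and 7.36 in WT lungs.

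For 8 classical monocyte markers the median difference was 0.18, with 3 higher and 1 lower without overlap of the groups, a share of higher genes near the 37.8% of all genes. Plac8 was at 4.94 and 4.84 log2 CPM in SA lungs, against 4.05 and 4.11 in WT lungs, a difference of 0.81 ± 0.08 with an adjusted p of 0.0502 (limma), just above the threshold. Ly6c2 and the chemokine receptor gene Ccr2 differed by 0.72 ± 0.12 and 0.48 ± 0.10 (adjusted p = 0.065 and 0.086, limma). Reads of Ly6c2 can be shared with its close paralog Ly6c1. Fn1, which monocytes share with stromal cells, was at -0.60. Summed over the list, the level was 1511 and 1485 CPM in SA lungs, against 1394 and 1761 CPM in WT lungs. Most of each sum came from Hp, named after its values were seen. Hp was at 10.22 and 10.13 log2 CPM in SA lungs and 10.02 and 10.32 in WT lungs. The sum therefore says little about the other genes of the list. Monocytes also express Adgre1 and Csf1r, and the part of monocytes in the Adgre1 values was not tested.

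**Figure D4:**
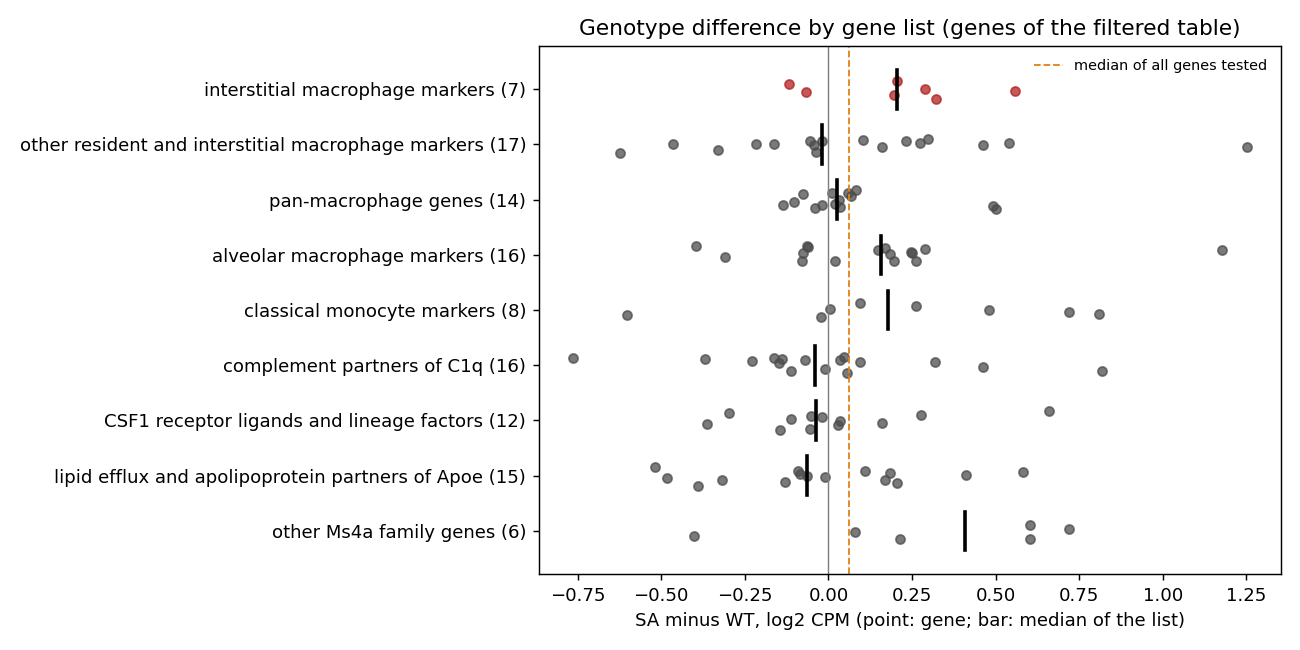
Each point is the difference SA minus WT in log2 CPM (horizontal axis) of 1 gene of the filtered table, grouped by list (vertical axis, number of genes in brackets), with a bar at each list's median and a dashed line at the median of all genes, 0.06. The interstitial macrophage markers, with Folr2 absent because it is outside that table, run from -0.12 to 0.56, inside the range of the other resident and interstitial macrophage markers.

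C1q acts with the proteases C1r and C1s, whose genes differed little. C1ra was at 5.55 and 5.56 log2 CPM in SA lungs and 5.50 and 5.52 in WT lungs, and C1s1 at 6.39 and 6.43 in SA lungs and 6.48 and 6.56 in WT lungs. The steps within a genotype seen for the C1q chains were absent from both protease genes. Over 16 complement partners the median difference was -0.04, with 7 higher and 9 lower. Cfb, which encodes factor B of the alternative pathway, was higher in both SA libraries at 0.82 ± 0.18, and Cd93, an endothelial and myeloid surface protein gene once taken for a C1q receptor, was lower at -0.77 ± 0.14 (limma adjusted p = 0.087 and 0.075). C1ra and C1s1 have near-identical copies, C1rb and C1s2, with which reads can be shared.

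The ligands of the CSF1 receptor differed from each other. Csf1 was at 4.93 and 4.93 log2 CPM in SA lungs, against 4.06 and 4.48 in WT lungs, a difference of 0.66 ± 0.16 (limma adjusted p = 0.099). Il34 was at 3.54 and 3.24 in SA lungs and 3.41 and 3.30 in WT lungs, a difference of 0.03 ± 0.14. Spi1, which encodes PU.1, differed by -0.11, and the GM-CSF receptor genes Csf2rb and Csf2ra by -0.30 and -0.36. Reads of Csf2rb can be shared with its copy Csf2rb2. Of 12 genes in all, 5 were higher and 7 lower, and the median was -0.04.

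Ms4a7 belongs to a family of membrane-spanning genes, and of its 6 other tested genes 3 had both SA libraries above both WT libraries and 1 had both below, where 37.8% and 22.9% of all genes did. Ms4a6b was at 4.22 and 4.33 log2 CPM in SA lungs, against 3.54 and 3.80 in WT lungs (difference 0.60 ± 0.13, limma adjusted p = 0.084). Ms4a6c and Ms4a6d, named after their values were seen, differed by 0.72 and 0.21, and these paralogs can share reads. Ms4a4c, also named after its values were seen and outside the filtered table, was at 2.40 and 2.43 in SA lungs, against 0.54 and 1.55 in WT lungs. It passed in the fit of the unfiltered table at 1.37 ± 0.25 (limma adjusted p = 0.0035), where 4.75% of all genes did. Calls in that table depend strongly on the fit. They numbered 2213 in the main fit, 5426 with the replicate block, 36 of 14534 at a mean of at least 1 log2 CPM and 6 with voom. Without the trend 0 genes passed, Ms4a4c included. Of the 6 tested family genes, 2 passed higher and 1 lower in the main fit of the unfiltered table. Ms4a4d was lower in SA lungs, at -0.40 ± 0.10. The B cell gene Ms4a1, named after its values were seen, was lowest in WT 1, at 3.76 and 4.19 in SA lungs and 2.52 and 4.22 in WT lungs. Over the 6 tested family genes the median was 0.41.

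Among genes linked to Apoe, Abca1 and Trem2 were nearly equal. The cholesterol exporter gene Abca1 differed by -0.06 ± 0.07. Trem2, a lipid-sensing receptor gene of macrophages outside the filtered table, differed by 0.03 ± 0.20. Mylip, whose product degrades the LDL receptor, was higher at 0.58 ± 0.09, and Lrp1, a receptor that takes up ApoE, was lower at -0.52 ± 0.10 (limma adjusted p = 0.058 and 0.075). The median of these 15 genes was -0.06. Of the genes listed with Folr2, the folate transporter gene Slc46a1 and its family relative Slc46a3 differed by 0.25 and 0.35. The median over 3 tested genes of that list was 0.25, and it turned to -0.07 with quantile normalization. Of the genes related to Adgre1, Adgre4 and Adgre5 differed by 0.54 and 0.14, a median of 0.34.

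The genes most like the mean profile of the 8 markers over the 4 libraries were Lgals1, Bcl6, Gstz1, Hsp90ab1 and Bscl2. They were the nearest among 5991 genes, at Euclidean distances of 0.04 to 0.11 on the log2 scale after each gene was centred on its own mean. C1qb, the nearest marker, lay at 0.18 from that mean profile, and Folr2, the farthest, at 0.66. Galectin-1, encoded by Lgals1, is a secreted lectin, and Bscl2 encodes seipin, a protein of lipid droplet formation. Lgals1 was at 6.85 and 7.12 log2 CPM in SA lungs, against 6.51 and 7.04 in WT lungs.

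RefSeq promoter windows were at hand for 5 of the 8 markers. In 9 windows of these genes, 0 held GAAA followed by any 2 bases and GAAA on either strand, as in the interferon-stimulated response element, which 3.44% of all windows hold. GAGGAA was found in 5 of the 9 windows, where 28.3% of all windows hold it, a comparison that was not tested. Those windows belong to 4 genes, C1qb, C1qc, Ms4a7 and Apoe, and none to Folr2.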

How the data were processed

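Per the labels' protocols, total lung RNA depleted of rRNA went into stranded libraries, 4 in all. The submitters' processing notes name Subread, featureCounts, limma and GRCm38. Tool versions, the annotation and the filter's rule are not given in the sources used here. As deposited by the authors, there were 2 tables of log2 CPM values, filtered and unfiltered. Repeated identifiers (12850 genes from 13041 lines, 46603 from 47511) held equal values. Undoing the log2 values, with 0.5 read added per gene, gave whole reads for 100.0% of genes within 0.001 read.

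SA was compared with WT by limma 3.58.1 (R 4.3.3), two-sided, with a mean-variance trend, genotype as the only term and Benjamini-Hochberg adjustment over all genes of the filtered table; Folr2 came from the fit of the unfiltered table. The test was checked on simulated data with the same added noise for all genes and with independent libraries. That check does not cover steps between replicates that the genotypes share. Members and lists were chosen with earlier results of these data known. Named genes were the 8 markers, 20 genes fixed with the lists, the 2 further genes of lowest p in each list and the 5 nearest profiles (mean of at least 5 log2 CPM); 1 of these is not reported here, and other genes are given as chosen after their values were seen. Alternatives changed 1 step at a time; the adipocyte list, and a floor of 1 on mean log2 CPM in the unfiltered table, were added after the data were seen. The design text speaks of biological replicates, while no label ties a library to an animal; the p-values reflect the spread of these libraries, part of which may be technical. Libraries differed by more than sampling noise. Python 3.11.15 did the remaining steps.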

Additional observations from a re-analysis of the deposited data

How the results depend on the processing

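The count of markers past the threshold stayed at 0 under 8 of the 9 settings that kept all libraries (log2(CPM + 1), a mean of at least 1 log2 CPM, median centring, quantile normalization, no trend, voom, and the unfiltered table whole or at a mean of at least 1, the last added after the data were seen). With the replicate block it was 1: C1qa at 0.32, limma adjusted p = 0.040, where 24.7% of all genes passed. Of 104 genes in the 10 lists, 24 passed with the replicate block, 15 higher and 9 lower, or 23.1%. In the main fit 0 passed, and 1, Plac8, passed with voom, median centring or a mean of at least 1 log2 CPM. In the unfiltered table more passed, as given above. Replicate numbers are not stated to pair animals; the steps between replicates of the 2 genotypes correlated at 0.44 across 12850 genes. With a library left out the count ranged from 0 to 1 (Folr2, without WT 2) and the median difference of the markers from -0.065 to 0.57. Left-out ranges were -0.040 to 0.69 for C1qa, -0.050 to 0.63 for C1qb, -0.19 to 0.58 for C1qc, -0.30 to 1.00 for Folr2, -0.28 to 0.14 for Apoe, -0.16 to -0.08 for Csf1r, 0.55 to 0.56 for Ms4a7 and 0.19 to 0.22 for Adgre1. Apoe turned to 0.020 with quantile normalization. The cause was not tested.

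Median centring lowered all list medians, to -0.064 (pan-macrophage), -0.13 (complement), -0.13 (CSF1 receptor), -0.11 (other resident macrophage), -0.15 (lipid), 0.068 (alveolar macrophage), 0.089 (classical monocyte), 0.16 (folate), 0.25 (Adgre) and 0.32 (Ms4a). With quantile normalization medians were -0.040 (pan-macrophage), -0.086 (complement), -0.16 (CSF1 receptor), 0.19 (Ms4a), -0.073 (folate), -0.029 (other resident macrophage), 0.094 (alveolar macrophage), 0.10 (classical monocyte), -0.094 (lipid) and 0.22 (Adgre). Left-out ranges were -0.059 to 0.20 (other resident macrophage), -0.028 to 0.088 (pan-macrophage), -0.013 to 0.17 (alveolar macrophage), -0.16 to 0.48 (classical monocyte), -0.10 to 0.029 (complement), -0.10 to -0.02 (CSF1 receptor), -0.09 to -0.06 (lipid), 0.21 to 0.51 (Ms4a), 0.10 to 0.40 (folate) and 0.24 to 0.43 (Adgre). Over all genes 40 passed, 21 higher and 19 lower; the count was 3179 with the replicate block, 2213 of 46603 in the unfiltered table, 476 with median centring (169 higher, 307 lower), 415 at a mean of at least 1, 268 with voom, 10 with log2(CPM + 1), 1 without the trend, and 0 with quantile normalization (3157 at an unadjusted p under 0.05). Fold changes of genes under about 100 reads, such as Ms4a7, are limited by depth.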
